A study of Mus musculus with 16 samples.

Results

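Isg15, Mx1, Rsad2, Oasl1 and Irf7 are interferon-inducible antiviral genes, followed here through a MeRIP-seq experiment on mouse macrophages. They were taken by gene symbol from the deposited table and make up 5 of its 4943 genes. They carry 15 of the 7069 peaks of that table, with 1 peak on Isg15, 4 on Mx1, 2 on Rsad2, 2 on Oasl1 and 6 on Irf7. None of these 15 peaks is annotated to a further gene.

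The cells were peritoneal macrophages (PMs), primary cells washed from the peritoneal cavity after an injection of thioglycolate, which draws monocytes there, and then kept in culture. They came from WT mice and from Adap-/- mice (AKO), which lack the adaptor protein ADAP that the gene Fyb1 encodes. In each genotype, 1 group was left unstimulated (mock) and 1 was stimulated with LPS at 1 µg/ml for 6 h. Each of the 4 groups had 2 replicates, and the fragmented RNA of each was divided into an input library and a library of fragments captured by an antibody against m6A (IP), 16 libraries in total. The labels do not say whether the 2 replicates of a group came from separate animals, so the p-values below measure only the spread between these samples, which may be technical.

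LPS is sensed by TLR4, which acts through the adaptor TRIF and the kinase TBK1 on the transcription factor IRF3 and so switches on interferon beta. Secreted interferon then acts back on its receptor, whose signalling raises antiviral genes with an interferon-stimulated response element in their promoters. IRF7 is itself such a gene and a transcription factor of type I interferon genes. ISG15 is a ubiquitin-like modifier and MX1 a dynamin-like GTPase. OASL1 belongs to the oligoadenylate synthetase family and is known to hold down the translation of Irf7 mRNA. RSAD2 (viperin) makes a chain-terminating nucleotide. Only RNA was measured here, so the activity of these proteins is not seen.

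The total number of counted reads lay between 2121313 and 4325961 per input library and between 5728590 and 19030373 per IP library. The input reads on all peaks of a gene were summed to give its level, written as CPM after TMM scaling (input CPM), and 4742 genes with sufficient reads were tested, all 5 members among them. Reads outside peaks are not in the table, so levels are compared between groups for the same gene and not between genes, whose peak lengths without introns are not at hand. Of 7 macrophage markers (Adgre1, Csf1r, Itgam, Cd68, Lyz2, Mertk and Cd14), the table held 6 and lacked Itgam. Their summed level lay between 8692 input CPM in Adap-/- mock replicate 1 and 10483 in Adap-/- LPS replicate 2. Single markers moved apart: Lyz2 fell after LPS in WT PMs (4415 and 5344 to 3266 and 2819), while Cd14 and Mertk rose. After LPS, Cd14 was called higher and Mertk lower (−0.32, adjusted p = 0.0371) in Adap-/- than in WT PMs. Mertk was not followed in the alternative fits described below. Plasmacytoid dendritic cells, known for a high level of Irf7, were covered by 5 markers, of which the table held Tcf4, at 0.262 to 7.15 input CPM. Tcf4 was called higher after LPS in WT (2.22) and Adap-/- PMs (2.06), the direction of Irf7. The lists for neutrophils, B cells, T cells, mast cells, eosinophils, and fibroblasts with mesothelium had 0 genes in the table, which holds only genes with a peak. In such bulk RNA, fewer cells of a type and less RNA per cell cannot be told apart.

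Fyb1 (ENSMUSG00000022148, chr15:6552334-6692785, 4 peaks of which 1 is shared with a second gene) had 244 and 257 input CPM in WT mock PMs, 349 and 377 in WT LPS PMs, 46.7 and 36.9 in Adap-/- mock PMs, and 41.5 and 35.7 in Adap-/- LPS PMs. All 4 Adap-/- libraries lay below all 4 WT libraries, as the genotype labels call for. The log2 fold change of Adap-/- against WT was −3.22 (SE 0.132, adjusted p = 5.63e-10) after LPS, the lowest of the 4742 genes, and −2.58 (SE 0.127, adjusted p = 8.51e-09) in mock PMs.

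Before the members are described one by one, their share of all counted reads shows which libraries stand apart. In the mock input libraries the 15 peaks took 0.151% and 0.158% of the reads in WT and 0.269% and 0.263% in Adap-/- PMs. After LPS the input share was 6.57% and 6.79% in WT and 4.24% and 3.94% in Adap-/- PMs. In the IP libraries of LPS-treated PMs the share was 2.47% and 2.05% in WT and 1.47% and 1.55% in Adap-/- PMs. The replicates of a group lie close together in these 12 libraries. The mock IP libraries do not: WT mock replicate 1 had 2.25% against 0.159% in replicate 2, and Adap-/- mock replicate 2 had 1.27% against 0.253% in replicate 1. Summed over a gene's peaks, the IP level of the members differed between the replicates by 11.6-fold to 20.0-fold in WT mock and by 3.94-fold to 7.38-fold in Adap-/- mock PMs. Between LPS replicates it differed by 1.04-fold to 2.55-fold in WT and 1.05-fold to 1.88-fold in Adap-/- PMs, and between input replicates by at most 1.43-fold. Over all peaks, 7.14% in WT mock and 6.85% in Adap-/- mock differed more than 4-fold between the IP replicates, compared with 1.12% in WT LPS and 2.75% in Adap-/- LPS. The reason for the high IP reads of these 2 mock libraries was not tested. They do not enter the input results, and the edgeR counts and medians for m6A that use mock PMs are given with and without these 2 samples.

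**Figure D1:**
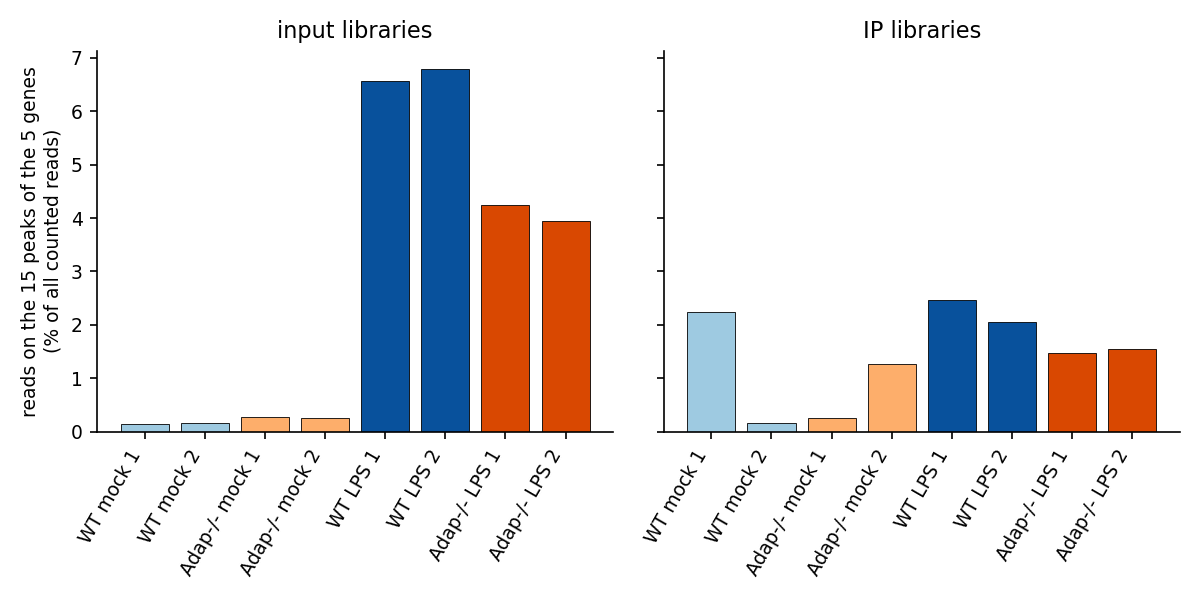
Reads on the 15 peaks of Isg15, Mx1, Rsad2, Oasl1 and Irf7 as a percentage of all counted reads, 1 bar per library, with input libraries on the left and IP libraries on the right. Among the mock IP libraries, WT replicate 1 (2.25%) and Adap-/- replicate 2 (1.27%) stand well above the other 2, which have 0.159% and 0.253%.

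Irf7 (ENSMUSG00000025498, chr7:140842619-140846334, minus strand, build GRCm39), the transcription factor among the 5 genes, had 415 and 392 input CPM in WT mock, 888 and 887 in Adap-/- mock, 12587 and 12395 in WT LPS, and 10327 and 9072 in Adap-/- LPS PMs. The group means with their SD (n = 2) rose from 404 ± 16.7 in WT mock through 887 ± 0.739 in Adap-/- mock and 9699 ± 887 in Adap-/- LPS to 12491 ± 136 in WT LPS PMs. No 2 groups overlapped, and the mock libraries of the knockout lay above the WT mock libraries. The log2 response of Irf7 to LPS was 4.95 in WT (SE 0.138, adjusted p = 4.76e-14) and 3.45 in Adap-/- PMs (SE 0.128, adjusted p = 1.21e-12). In mock PMs the level was 2.2-fold higher in Adap-/- than in WT PMs (log2 fold change 1.14, SE 0.12, adjusted p = 2.51e-05). After LPS it was 0.777 times that of WT (log2 fold change −0.36, SE 0.116, adjusted p = 0.0449). This last value sits at the edge of the threshold. With upper-quartile size factors, a stricter filter on low counts, a replicate block or only peaks annotated to 1 gene it did not pass (−0.37 to −0.34). It no longer passed without Adap-/- LPS replicate 1 (−0.46, adjusted p = 0.0632) or replicate 2 (−0.27, adjusted p = 0.328), without WT LPS replicate 1 (−0.35, adjusted p = 0.158) or replicate 2 (−0.37, adjusted p = 0.112), or without Adap-/- mock replicate 1 (−0.35, adjusted p = 0.103) or replicate 2 (−0.35, adjusted p = 0.104), and stayed negative in each of these fits. The difference of the LPS responses, Adap-/- minus WT, was −1.50 on the log2 scale (SE 0.167, adjusted p = 2.61e-04).

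Isg15 (ENSMUSG00000035692, chr4:156283912-156285253, minus strand), the ubiquitin-like modifier, had 54.5 and 56.3 input CPM in WT mock, 63.5 and 60.2 in Adap-/- mock, 7446 and 6967 in WT LPS, and 4230 and 4356 in Adap-/- LPS PMs. Both LPS groups lay far above both mock groups, and after LPS the 2 WT libraries lay above the 2 Adap-/- libraries. The mock groups, 55.4 ± 1.29 and 61.9 ± 2.35 (SD, n = 2), did not overlap but differed little. The log2 fold change of LPS against mock was 7.02 in WT (SE 0.142, adjusted p = 7.45e-15) and 6.12 in Adap-/- PMs (SE 0.136, adjusted p = 2.42e-14). After LPS the level in Adap-/- PMs was 0.596 times that in WT PMs (log2 fold change −0.75, SE 0.106, adjusted p = 2.84e-04). In mock PMs the log2 difference of 0.16 (SE 0.13) did not pass the threshold (adjusted p = 0.445). The difference of the LPS responses was −0.91 (SE 0.167, adjusted p = 0.0111). It fell just short of the threshold without Adap-/- LPS replicate 1 (−0.88, adjusted p = 0.0511), Adap-/- mock replicate 1 (−0.85, adjusted p = 0.0701) or Adap-/- mock replicate 2 (−0.93, adjusted p = 0.0652).

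Oasl1 (ENSMUSG00000041827, chr5:115061323-115075974, plus strand), the OAS-like protein, had 72.4 and 59.8 input CPM in WT mock, 119 and 115 in Adap-/- mock, 5963 and 5817 in WT LPS, and 4220 and 4203 in Adap-/- LPS PMs. The 4 groups followed the same order as for Irf7, with no overlap, at means of 66.1 ± 8.89, 117 ± 2.91, 4212 ± 12.2 and 5890 ± 104 (SD, n = 2). Its log2 response to LPS was 6.48 in WT (SE 0.144, adjusted p = 8.45e-15) and 5.17 in Adap-/- PMs (SE 0.135, adjusted p = 4.86e-14). In mock PMs the knockout stood 1.77-fold above WT (log2 fold change 0.82, SE 0.128, adjusted p = 5.55e-04), and after LPS at 0.715 times WT (log2 fold change −0.48, SE 0.111, adjusted p = 0.00733). Without Adap-/- LPS replicate 1 or replicate 2 the difference after LPS was −0.49 and −0.48, with adjusted p of 0.0514 and 0.0695. The LPS responses differed by −1.31 (SE 0.17, adjusted p = 5.74e-04).

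Mx1 (ENSMUSG00000000386, chr16:97248237-97264106, minus strand), the dynamin-like GTPase, had 29.7 and 41.5 input CPM in WT mock, 47.8 and 59.0 in Adap-/- mock, 8720 and 10338 in WT LPS, and 5694 and 5500 in Adap-/- LPS PMs. The mock libraries of the 2 genotypes are neighbours that do not overlap, though the gap between them is smaller than the distance between replicates. Mx1 had the highest LPS response of the 5 genes in both genotypes, with a log2 fold change of 8.07 in WT (SE 0.197, adjusted p = 1.67e-14), rank 22 of 4742, and of 6.71 in Adap-/- PMs (SE 0.184, adjusted p = 7.77e-14), rank 35. Against WT, Adap-/- PMs were at a log2 difference of 0.59 in mock (SE 0.18, adjusted p = 0.0344) and of −0.77 after LPS (SE 0.14, adjusted p = 0.00168). The mock difference missed the threshold without WT mock replicate 1 (0.37, adjusted p = 0.159) and without Adap-/- mock replicate 2 (0.43, adjusted p = 0.298). The LPS responses differed by −1.36 (SE 0.228, adjusted p = 0.00501), which without Adap-/- mock replicate 2 became −1.18 (adjusted p = 0.0652).

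Rsad2 (ENSMUSG00000020641, chr12:26492752-26506430, minus strand), which encodes viperin, had 305 and 380 input CPM in WT mock, 381 and 366 in Adap-/- mock, 53536 and 52719 in WT LPS, and 25973 and 26165 in Adap-/- LPS PMs. Here the mock groups overlapped, and after LPS the 2 Adap-/- libraries held about 0.491 times the WT level. The log2 fold change of LPS against mock was 7.28 in WT (SE 0.181, adjusted p = 1.95e-14) and 6.12 in Adap-/- PMs (SE 0.172, adjusted p = 8.22e-14). The genotype difference after LPS, −1.03 (SE 0.138, adjusted p = 1.91e-04), was the most negative of the 5. In mock PMs it was 0.13 (SE 0.142, adjusted p = 0.595), and −0.02 without WT mock replicate 1. The LPS responses differed by −1.15 (SE 0.198, adjusted p = 0.00589).

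**Figure D2:**
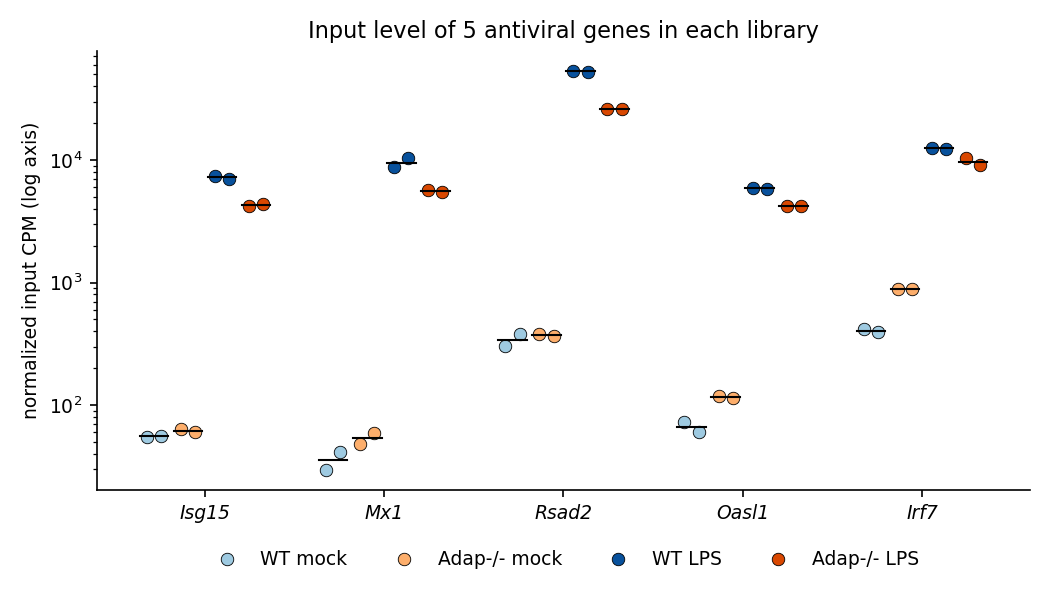
Input CPM of each gene on a log axis, 1 point per input library and a line at the mean of the 2 replicates, coloured by genotype and treatment. Irf7 in Adap-/- mock PMs (888 and 887) lies above WT mock (415 and 392), while after LPS every gene is lower in Adap-/- than in WT PMs.

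Read together, all 5 genes were called higher after LPS in WT PMs, where 30.2% of all tested genes were called higher and 28.9% lower at an adjusted p below 0.05. The same 5 were called higher after LPS in Adap-/- PMs, against 28.5% higher and 26.0% lower over all genes. Between the genotypes after LPS, 5 of 5 were called lower in Adap-/- PMs, while 9.78% of all genes were called lower and 6.03% higher. This count was 3 of 5 without either Adap-/- LPS replicate (Irf7 and Oasl1 lost), and 4 of 5 without either WT LPS or either Adap-/- mock replicate (Irf7 lost). Irf7 also lost this call with upper-quartile size factors, a stricter filter on low counts, a replicate block or only peaks annotated to 1 gene. In mock PMs 3 of 5 (Irf7, Oasl1 and Mx1) were called higher in Adap-/- PMs and 0 lower by edgeR, where 8.71% of all genes were called higher and 8.65% lower. The count of higher members was 2 of 5 without WT mock replicate 1 or Adap-/- mock replicate 2 (Mx1 lost). For the difference of the LPS responses 5 of 5 were called lower, beside 1.29% of all genes lower and 0.358% higher. This count was 3 of 5 without Adap-/- mock replicate 2 (Isg15 and Mx1 lost), and 4 of 5 without Adap-/- mock replicate 1 or Adap-/- LPS replicate 1 (Isg15 lost). The median log2 fold change over the 5 was 7.02 and 6.12 for LPS in WT and Adap-/- PMs, −0.75 between genotypes after LPS, 0.59 between genotypes in mock PMs and −1.31 for the difference of the responses. Over all 4742 genes the same medians were −0.03, −0.03, −0.01, 0.01 and −0.02. The counts over all genes between genotypes lean on single libraries: the 750 genes after LPS became 354 without Adap-/- LPS replicate 2, and 385 when WT LPS replicate 1 was dropped. The 823 in mock PMs became 308 without Adap-/- mock replicate 2, 437 without WT mock replicate 2 and 534 without Adap-/- mock replicate 1. The 78 for the difference of the responses became 29 without Adap-/- mock replicate 2 and 127 without WT mock replicate 1, and 40 to 48 without Adap-/- mock replicate 1 or any 1 of the 4 LPS replicates.

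These comparisons share groups, so their values are not independent of each other. The 5 genes nevertheless divide differently over the 2 ends of the response. For Rsad2 and Isg15 most of the smaller response in Adap-/- PMs lay after LPS (−1.03 and −0.75, beside 0.13 and 0.16 in mock). For Irf7 most of it lay in the mock state (1.14, beside −0.36 after LPS), and Oasl1 (0.82 and −0.48) and Mx1 (0.59 and −0.77) lay between. No test compared one gene with another.

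**Figure D3:**
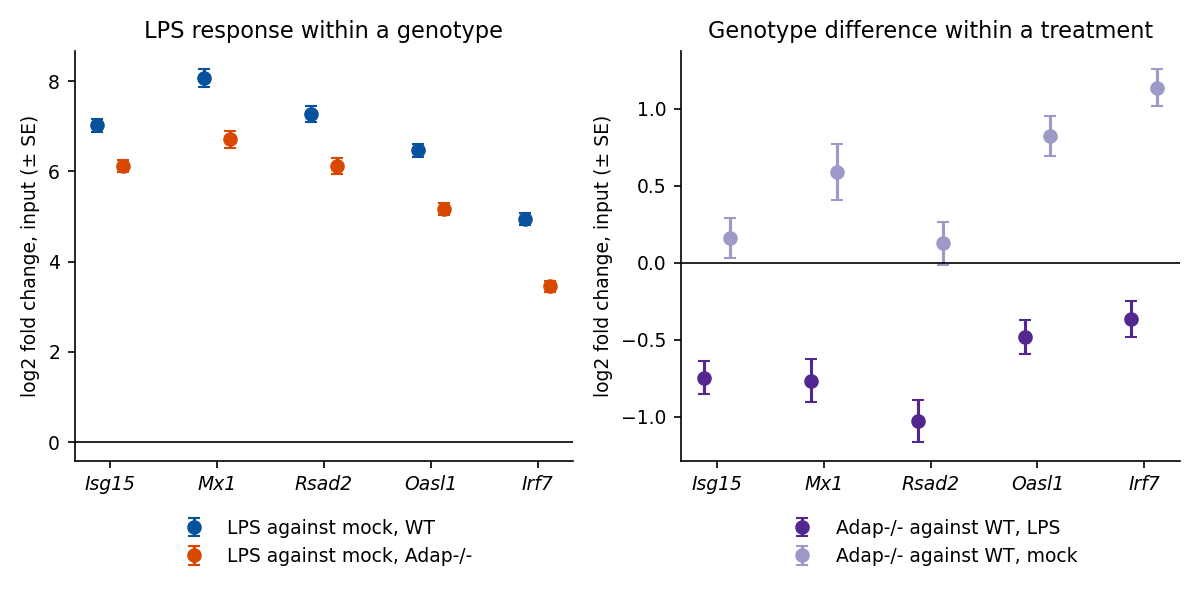
Log2 fold change in input of the 5 genes, with bars of 1 SE from the quasi-likelihood test. On the left the LPS response is lower in Adap-/- than in WT PMs for every gene, and on the right the difference between genotypes is negative after LPS and at or above 0 in mock PMs (−0.36 and 1.14 for Irf7).

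Likeness of pattern was measured as the root mean square difference of the log2 of input CPM plus 0.5, each gene centred on its own mean, over the 8 input libraries. The added 0.5 sets much of the distance where mock levels are near or below it. The gene most like Isg15 was Rsad2 at 0.142, followed by Cd69 at 0.216 and Ifit2 at 0.252. The same genes were nearest to Rsad2, in the order Isg15 at 0.142, Cd69 at 0.144 and Ifit2 at 0.19. For Irf7 they were Ifih1 at 0.151, Rigi at 0.197 and Marcksl1 at 0.234. For Oasl1 they were Mx2 at 0.151, Ppfia3 at 0.219 and Slfn1 at 0.247, of which Mx2 had a mean of 0.518 input CPM in WT mock PMs. For Mx1 they were Ifi205a at 0.185, a gene without a name in the table (ENSMUSG00000113619, at a mean of 0.135 input CPM in WT mock PMs) at 0.287 and Ifi206 at 0.324. These genes were picked for their likeness, so what they share with a member follows from the choice. After LPS the neighbours of Irf7 differed, with log2 differences between genotypes of −0.48 for Ifih1, −0.20 for Rigi and −0.02 for Marcksl1. In mock PMs these differences lay close together, at 0.90, 0.85 and 0.89 in the same order.

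The other genes of the pathway were counted from 10 lists with 81 genes in all, of which the table held 64 and 62 had enough reads to be tested. LPS raised 56 of the 62 and lowered 2 in WT PMs, with a median of 4.22 on the log2 scale, and raised 56 and lowered 1 in Adap-/- PMs, with a median of 3.68. After LPS, 16 were called lower and 3 higher in Adap-/- than in WT PMs, with a median of −0.26. In mock PMs 11 were called higher and 7 lower by edgeR, with a median of 0.04, and 10 higher and 2 lower by DESeq2. For the difference of the responses 10 were called lower and 0 higher by edgeR, with a median of −0.13. The medians over all genes and the shares called are those given above, with 9.78% lower and 6.03% higher after LPS and 8.65% lower and 8.71% higher in mock PMs. Single libraries weigh on these counts. Without WT LPS replicate 1 the split after LPS was 10 lower and 2 higher. In mock PMs it was 10 higher and 19 lower without WT mock replicate 1, 10 and 0 without WT mock replicate 2, 9 and 2 without Adap-/- mock replicate 1, and 5 and 0 without Adap-/- mock replicate 2. For the difference of the responses, 11 higher and 10 lower genes were called without WT mock replicate 1, and 0 and 6 without Adap-/- mock replicate 1.

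Upstream of the interferon genes, the list from TLR4 to interferon beta held 7 of 11 genes (Ly96, Tbk1, Ifnb1 and Myd88 are not in the table). The LPS coreceptor Cd14 had 509 and 512 input CPM in WT mock, 597 and 742 in Adap-/- mock, 2346 and 1978 in WT LPS and 2711 and 3376 in Adap-/- LPS PMs. It was thus higher in both Adap-/- LPS libraries than in both WT LPS libraries, with a log2 difference of 0.49 (SE 0.133, adjusted p = 0.0193). Tlr4 moved the same way (0.59, adjusted p = 0.00636), as did the adaptor gene Ticam2 (0.36, adjusted p = 0.0169), while Irf3 did not pass in any comparison. These 3 are the only list genes that were called higher in Adap-/- PMs after LPS in the edgeR fit, and they lie on the side opposite to the 5 members. Cd14 did not pass in 2 of its 16 alternative fits, without Adap-/- LPS replicate 2 (0.33) or WT LPS replicate 2 (0.38), and Ticam2 in 4, among them without Adap-/- LPS replicate 1 (0.31).

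Of the genes of interferon receptor signalling the table held 5 of 7 (not Tyk2 and Irf9), and LPS raised all 5 in WT PMs, from 0.37 for Jak1 to 3.64 for Stat2, though Jak1 did not pass in 3 of 16 alternative fits (0.08 with upper-quartile size factors, 0.28 without WT LPS replicate 2 and 0.29 without WT mock replicate 1) and Ifnar1 in 1 (0.21 with upper-quartile size factors). None of the 5 passed between the genotypes after LPS by edgeR, and Stat2 was at −0.16 (adjusted p = 0.352). Among the other IRF genes 4 of 5 were held (not Irf4). Irf1, with the largest LPS response of that list (3.79 in WT), was at −0.69 in mock (adjusted p = 0.0138) and at −0.15 after LPS (adjusted p = 0.623), with WT mock replicates at 850 and 1385 input CPM and Adap-/- at 676 and 714. Its mock difference did not pass without WT mock replicate 2 (−0.29, adjusted p = 0.113), Adap-/- mock replicate 1 (−0.65, adjusted p = 0.0986) or Adap-/- mock replicate 2 (−0.72, adjusted p = 0.0909). Irf5 (−0.43, adjusted p = 0.00636) and Irf2 (−0.37, adjusted p = 0.0316) were lower in Adap-/- PMs after LPS, Irf5 in 14 and Irf2 in 9 of 16 alternative fits. Irf5 did not pass without Adap-/- LPS replicate 1 (−0.40) or WT LPS replicate 1 (−0.41), and Irf2 was weakest without Adap-/- LPS replicate 2 (−0.29, adjusted p = 0.231).

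The genes nearest in role to the members were split. For the conjugation and removal of ISG15, the table held Herc6, Uba7 and Usp18 and lacked Ube2l6. Usp18 had 0 reads in every library, though it is listed with a peak, and Uba7 had too few to test. The level of neither can be read here. Herc6, whose 3 peaks are shared with other genes, rose by 4.77 in WT PMs. It did not pass between genotypes after LPS (−0.20, adjusted p = 0.307). In the list around the OAS family 4 of 8 were held (not Oas1a, Oas1b, Oas1c and Oas2). After LPS 1 of the 4 was called lower in Adap-/- than in WT PMs and 3 were not called, with a list median of 0.06. Oas1g rose most (5.52 in WT) and was the gene lower in Adap-/- PMs after LPS (−0.34, adjusted p = 0.0392), the latter in 9 of 16 alternative fits, and weakest without WT LPS replicate 1 (−0.22, adjusted p = 0.340). All 11 MX and other antiviral GTPases were raised by LPS in both genotypes. In WT PMs Mx2 rose most (7.41) and Irgm1 least (3.85), while in Adap-/- PMs Gbp5 rose more than Mx2. Mx2 was the 1 gene of these called lower in Adap-/- PMs after LPS (−0.63, adjusted p = 0.00482). It did not pass without Adap-/- LPS replicate 1 (−0.56). In mock PMs 0 of the 11 were called higher by edgeR and 3 lower in Adap-/- PMs, with a median of −0.71. The summed level of the list was 1702 and 3314 input CPM in the WT mock replicates, and 1746 and 1829 in Adap-/- mock PMs. Without WT mock replicate 2 the 3 calls were lost, with −0.28 for Irgm1, −0.10 for Irgm2 and −0.24 for Igtp. Irgm2 and Igtp also did not pass without Adap-/- mock replicate 1 (−0.73 and −0.86), nor any of the 3 without Adap-/- mock replicate 2 (−0.67, −0.68 and −0.88 in the same order) or by DESeq2.

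The IFIT genes, whose proteins bind foreign RNA, came closest to the members as a list. All 5 were lower in Adap-/- PMs after LPS, from −1.31 for Ifit3b to −0.81 for Ifit3, with a list median of −0.92, and 4 of 5 were called for a smaller LPS response in Adap-/- PMs. The remaining gene, Ifit1bl1, was at −0.95 (adjusted p = 0.3), and Ifit2 lost its call without Adap-/- LPS replicate 2 (−1.37, adjusted p = 0.0524) or Adap-/- mock replicate 2 (−1.35, adjusted p = 0.0689). Ifit3 had 47.8 and 59.0 input CPM in WT mock, 94.7 and 91.5 in Adap-/- mock, 8046 and 7613 in WT LPS and 4567 and 4393 in Adap-/- LPS PMs. It has the group order of Irf7, Oasl1, Isg15 and Mx1, without overlap. The share of all genes with this order was not counted. Of the RNA and DNA sensors 8 of 11 were held (not Mavs, Cgas and Sting1). In mock PMs 3 of these 8 and 3 of the 5 IFIT genes were called higher in Adap-/- PMs by edgeR, and 0 lower. Among them Ifit1 kept the call in 15 and Tlr7 in 14 of 16 alternative fits. After LPS 4 of the 8 sensors were called lower, led by Tlr3 (−0.69, adjusted p = 4.01e-04) and Ifih1 (−0.48, adjusted p = 0.00250). The other 2, Dhx58 (−0.31) and Eif2ak2 (−0.29), passed in 8 and 3 of 16 alternative fits, with −0.26 for Dhx58 without WT LPS replicate 1 (adjusted p = 0.193) and −0.20 for Eif2ak2 without WT LPS replicate 2 (adjusted p = 0.322). Among 14 other restriction factors, all held, 3 were called lower after LPS: Cmpk2 (−1.40, adjusted p = 1.29e-05), Isg20 (−0.73, adjusted p = 2.84e-04) and Xaf1 (−0.29, adjusted p = 0.0372). Of these, Xaf1 passed in only 7 of 16 alternative fits and was at −0.26 without WT LPS replicate 1. Cmpk2 had 23630 and 23802 input CPM in WT LPS and 8955 and 9013 in Adap-/- LPS PMs. Of the negative regulators 3 of 5 were held (not Ptpn2 and Ifi27), and 0 of these passed between genotypes after LPS by edgeR, with Socs1 at 0.16 (adjusted p = 0.6).

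**Figure D4:**
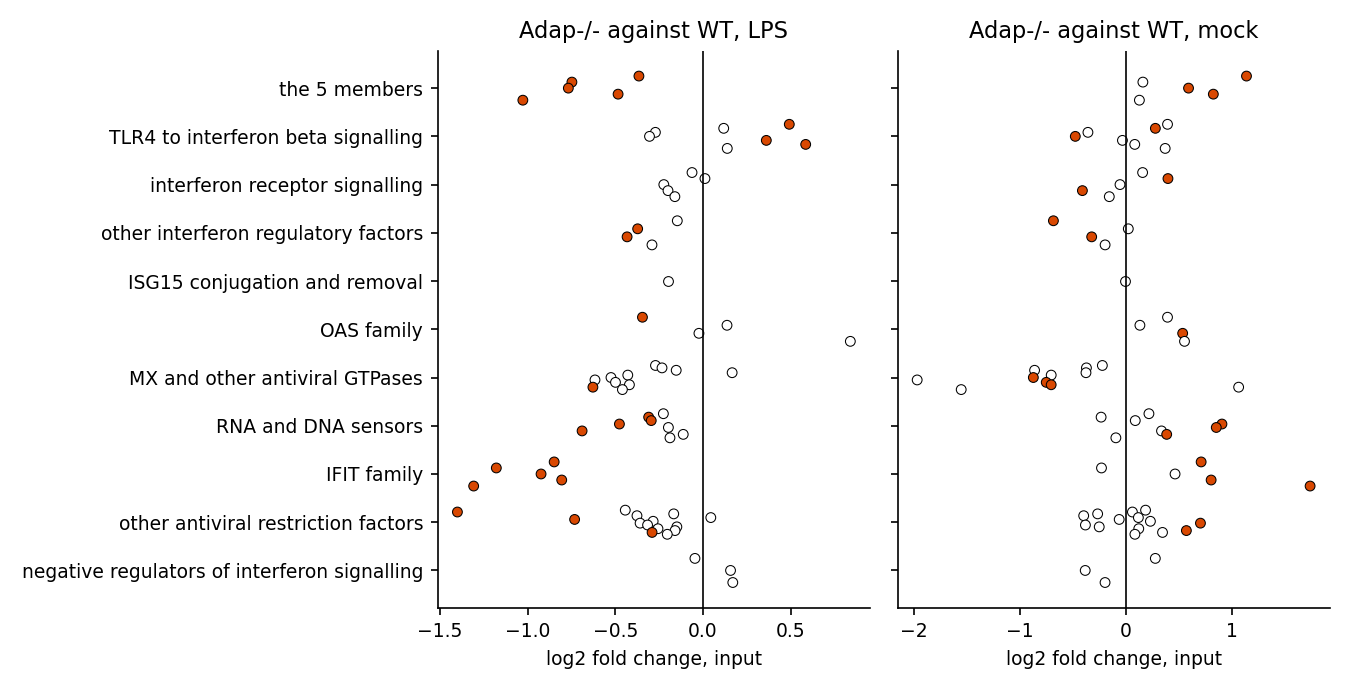
Log2 difference in input between Adap-/- and WT PMs after LPS (left) and in mock PMs (right), 1 point per tested gene of the 5 members and of each list, filled where the adjusted p is below 0.05. After LPS the members (−1.03 to −0.36) lie beside the IFIT genes (−1.31 to −0.81) on the lower side.

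The 250 bases before the start of transcription were read for the members, all 5 of which were called higher after LPS in both genotypes. RefSeq promoters of build GRCm38.p6, an earlier build than that of the table, held 4 of the 5 genes and no entry for Mx1. The core of the interferon-stimulated response element, taken as GAAA, any 2 letters and GAAA, or its complement on the other strand, was found in 2 of these 4 and in 978 of all 32851 promoter windows of this length (2.98%). Oasl1 and Irf7 do not have these letters in the window. Isg15 (chr4:156200819-156201068, minus strand) holds 3 overlapping matches between 78 and 57 bases before the start, and Rsad2 (chr12:26456453-26456702, minus strand) 1 on the other strand between 120 and 111. Both are shown 5′ to 3′ along the gene's strand, with the matched letters in capitals.
Isg15: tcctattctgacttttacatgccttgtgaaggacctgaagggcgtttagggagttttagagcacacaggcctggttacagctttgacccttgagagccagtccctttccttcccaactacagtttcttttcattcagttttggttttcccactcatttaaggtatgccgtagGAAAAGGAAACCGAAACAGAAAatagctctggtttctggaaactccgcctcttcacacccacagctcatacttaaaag
Rsad2: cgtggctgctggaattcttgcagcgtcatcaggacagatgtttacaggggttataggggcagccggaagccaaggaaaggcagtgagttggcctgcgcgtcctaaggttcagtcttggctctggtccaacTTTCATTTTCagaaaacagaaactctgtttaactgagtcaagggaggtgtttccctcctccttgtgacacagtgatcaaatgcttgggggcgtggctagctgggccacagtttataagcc
A match is a description of letters and not a site, and the lack of one says nothing about the factors.

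For m6A, each peak is described by its ratio of IP over input, the normalized CPM in the IP library over that in the input library of the same RNA sample. The scaling sets the middle of all peaks near 1 in every sample (median 0.956 to 1.04), so a ratio is read against the other peaks. Peaks are numbered from the 5′ end of a gene, and their spans may cross introns. The longest is Rsad2 peak 2, chr12:26492744-26502058, in the 3′UTR, and the shortest, at 50 bases, are Irf7 peak 2 in the coding region and Irf7 peak 6 over the stop codon. Isg15 peak 1 (chr4:156283911-156285250) covers the gene from 5′UTR to 3′UTR, and Oasl1 peak 2 (chr5:115068020-115075969) covers the stop codon and 3′UTR.

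After LPS, 2 of the 15 peaks had higher ratios than the others, Mx1 peak 1 with its few reads aside. Isg15 peak 1 had 0.578 and 0.588 in WT LPS and 0.668 and 0.636 in Adap-/- LPS PMs, at the percentiles 14.4, 17.6, 27.7 and 25.3 of all peaks. Oasl1 peak 2 had 0.763 and 0.836 in WT LPS and 0.898 and 0.875 in Adap-/- LPS PMs, at the percentiles 28.9, 36.3, 42.6 and 41.4. Both sit in the lower part of the range of all peaks. Their Adap-/- LPS samples lay above their WT LPS samples without overlap, and so did those of Rsad2 peak 2. The share of all peaks with such a split was not counted. By edgeR the log2 differences of Isg15 peak 1 (0.16, SE 1.27) and Oasl1 peak 2 (0.15, SE 1.10) were not called. Oasl1 peak 1, at the start codon of the same gene, had 0.155 and 0.121 in WT LPS and 0.153 and 0.165 in Adap-/- LPS PMs, with overlapping groups. Thus within Oasl1 the 3′ peak was captured several times better than the 5′ peak in all 4 LPS samples. It took 95.1% and 96.4% of the gene's IP reads in WT LPS and 95.7% and 95.1% in Adap-/- LPS PMs, beside 79.6%, 79.7%, 79.0% and 78.6% of its input reads.

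The remaining peaks were captured poorly after LPS. Rsad2 peak 2, with the most reads of the 15 peaks, had ratios of 0.154 and 0.118 in WT LPS and 0.157 and 0.181 in Adap-/- LPS PMs. Mx1 peak 4, over its stop codon, had 0.115 and 0.0616 in WT LPS and 0.0644 and 0.121 in Adap-/- LPS PMs. Irf7 peak 5, also over the stop codon, had 0.0997 and 0.0315 in WT LPS and 0.0478 and 0.114 in Adap-/- LPS PMs. For Mx1 peak 4 and Irf7 peak 5 the 2 genotypes overlap, and the replicates of a group lie as far apart as the groups. Their percentiles among all peaks were at most 2.55 for Mx1 peak 4 and 2.34 for Irf7 peak 5. Mx1 peak 1, in the 5′UTR, is left aside, since its input CPM was at most 11.8 and 0 in 3 of the 4 mock samples.

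**Figure D5:**
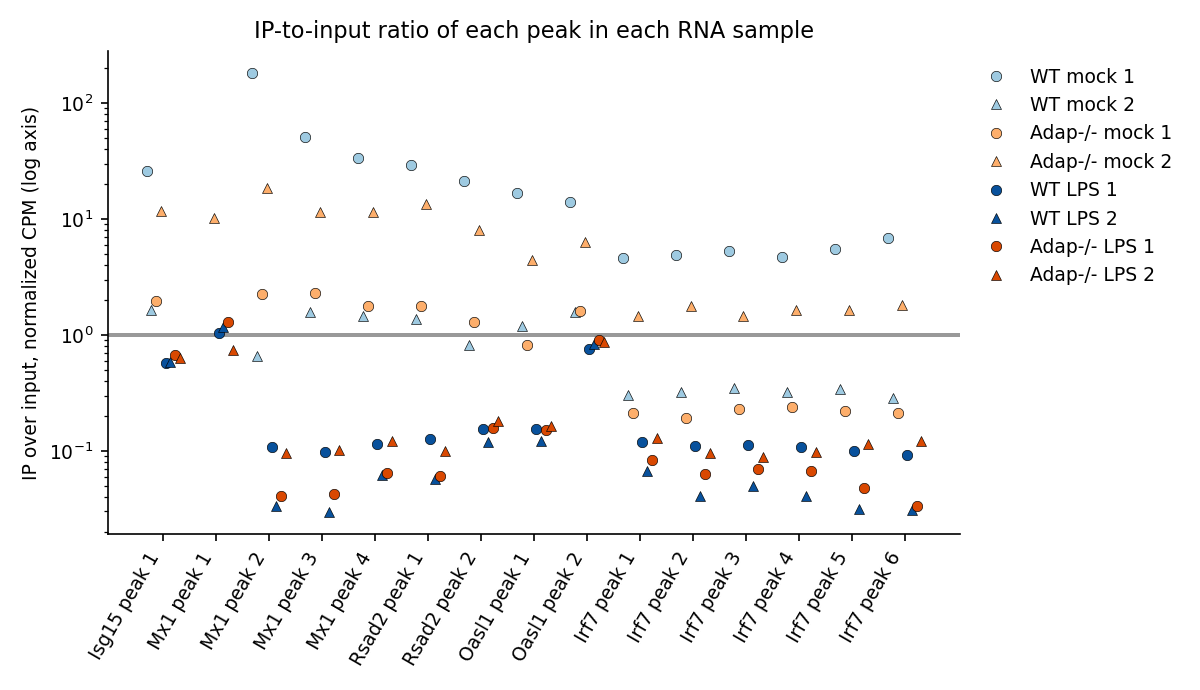
Ratio of IP to input CPM on a log axis for the 15 peaks, 1 point per RNA sample (circle replicate 1, triangle replicate 2), with a grey band at the medians over all peaks. In the LPS samples Isg15 peak 1 (0.578 to 0.668) and Oasl1 peak 2 (0.763 to 0.898) stand above the other peaks except Mx1 peak 1, and in the mock samples WT replicate 1 and Adap-/- replicate 2 lie above their partners.

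In mock PMs the ratios depend on the replicate. Isg15 peak 1 had 25.8 and 1.65 in WT mock and 1.97 and 11.6 in Adap-/- mock PMs. Rsad2 peak 2 had 21.2 and 0.817 in WT mock and 1.29 and 8.03 in Adap-/- mock PMs. Irf7 peak 5 had 5.55 and 0.34 in WT mock and 0.221 and 1.65 in Adap-/- mock PMs. In each case WT replicate 1 was highest and Adap-/- replicate 2 second, so the genotypes overlapped. In WT mock replicate 1 the split of Oasl1 reads also differed from that in the LPS samples, with 76.6% of its IP reads on peak 2 beside 79.5% of its input reads. In WT mock replicate 2 and Adap-/- mock replicate 1, the 2 samples that do not stand apart, peak 2 took 83.2% and 86.9% of the IP reads, beside 78.8% and 77.1% of the input reads. In Adap-/- mock replicate 2 it took 81.1% and 75.1%.

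Tested by edgeR over all 16 libraries and 7058 peaks, 0 of the 15 member peaks passed for LPS against mock in WT PMs, where 0% of all peaks were called. At an unadjusted p under 0.05 there were 14 of the 15 and 763 of all peaks, and DESeq2 called 14 of the 15 and 201 of all. In Adap-/- PMs edgeR called 0 of the 15 and 0% of all peaks, with 12 of the 15 and 812 of all peaks at an unadjusted p under 0.05, and DESeq2 called 6 and 117. With a block for the RNA sample, edgeR called 7 of all peaks in WT and 6 in Adap-/- PMs. The median log2 change over the 15 peaks was −5.80 in WT and −3.59 in Adap-/- PMs, where the medians over all peaks were 0.10 and 0.05. Without WT mock replicate 1 and Adap-/- mock replicate 2 these medians were −2.31 and −1.64, and edgeR called 6 and 7 of the 15 among 66 and 101 peaks of all, with 13 and 12 of the 15 and 622 and 903 of all at an unadjusted p under 0.05. DESeq2 was not run without these samples. A mock group of 1 sample was there taken to vary like the other groups. The member peaks called in that fit were Isg15 peak 1, Mx1 peak 4, and both peaks of Rsad2 and of Oasl1 in each genotype, and Mx1 peak 3 in Adap-/- PMs. Their log2 changes ran in WT PMs from −4.12 for Mx1 peak 4 (adjusted p = 0.012) to −1.04 for Oasl1 peak 2 (adjusted p = 0.0305), and in Adap-/- PMs from −5.06 for Mx1 peak 3 (adjusted p = 0.0411) to −0.91 for Oasl1 peak 2 (adjusted p = 0.0338). None of the 6 Irf7 peaks was called there, with −2.43 for peak 5 in WT PMs (adjusted p = 0.414). Leaving out WT mock replicate 2 in place of replicate 1 gave 8 member peaks among 75 in WT PMs, with a median of −6.82, and leaving out replicate 1 alone gave 0 with a median of −2.23. The median kept its sign in these fits, and its size followed the mock sample that was kept. Single called peaks over all came up in WT PMs without Adap-/- mock replicate 1 or 2 (1 each), and in Adap-/- PMs without Adap-/- LPS replicate 1 (2) or Adap-/- mock replicate 1 (1).

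Between the genotypes after LPS, in the same fit over all 16 libraries, 0 of the 15 peaks were called by edgeR, where 0.0142% of all peaks (1 peak) were called. At an unadjusted p under 0.05 there were 0 of the 15 and 503 of all peaks, and DESeq2 called 0 of the 15 and 29 of all. The log2 differences of the ratio lay between −0.22 and 0.31 with a median of 0.15, beside 0.01 over all peaks. Isg15 peak 1 was at 0.16 (SE 1.27, adjusted p = 1.00) and Oasl1 peak 2 at 0.15 (SE 1.10, adjusted p = 1.00). The spread behind these SE is taken from all 16 libraries, the mock IP libraries that stand apart included. With only the libraries of the 2 LPS groups, 0 of the 15 peaks and 0 of all peaks were called by edgeR, with 0 and 806 at an unadjusted p under 0.05, and the median over the 15 was 0.16. The median turned negative when replicate 2 of Adap-/- LPS (−0.24) or of WT LPS (−0.33) was left out, and was 0.39 and 0.65 without replicate 1 of these groups. The count over all peaks became 14 without Adap-/- LPS replicate 2, 5 without Adap-/- LPS replicate 1, 8 without either WT mock replicate, and 0 without WT LPS replicate 1 or either Adap-/- mock replicate. In mock PMs edgeR again called 0 of the 15 and 0% of all peaks, with 0 and 148 at an unadjusted p under 0.05, and DESeq2 called 0 and 0. The median over the 15 peaks was −1.51, with all 15 below 0, beside −0.01 over all peaks. It was 1.83 without WT mock replicate 1, −3.20 without Adap-/- mock replicate 2 and 0.05 without both (where edgeR called 0 peaks, with 1 of the 15 at an unadjusted p under 0.05), so the sign of the mock difference in m6A rests on these 2 samples.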

How the data were processed

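The authors deposited a table of counts, the reads of each m6A peak in 8 input and 8 IP libraries. Their notes name Bowtie2 2.2.8, MACS2 2.1.2, DiffBind 2.8 and build GRCm39. Input counts were summed over the peaks of a gene. Filtering with filterByExpr, TMM scaling and quasi-likelihood tests were done with edgeR 4.0.16 in R 4.3.3, with Benjamini-Hochberg adjustment over all genes or all peaks and a threshold of 0.05. Changes in m6A were tested as IP minus input between groups over all 16 libraries. SE is the log2 fold change divided by the square root of F. Tables and figures were made with Python 3.11.15, pandas 2.3.3 and matplotlib 3.10.9. Scripts were tested on simulated data.

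Members and lists were chosen with earlier results of these data known. List genes are named by a rule: the highest and lowest LPS response in WT per list, up to 4 genes per list passing between genotypes after LPS, by adjusted p, and genes the table lacks. The 3 genes most like each member are also named. Since 86 symbols are shared by several gene identifiers, 17 list genes were taken by description. Replicate numbers carried little pairing (r between −0.08 and 0.16 in input), so no block was used. Between the input and IP libraries of a group, which share RNA samples, r lay between −0.10 and 0.09. Alternatives were DESeq2 1.42.0, other size factors, other filters, a replicate block, only the libraries compared, only peaks of 1 gene, and leaving out samples. Some items of the lists are not reported here by name.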

Additional observations from a re-analysis of the deposited data

Results flagged for a closer look

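For all 5 genes the response to LPS was tested for a difference by genotype, Adap-/- minus WT on the log2 scale, and the value passed the threshold. This difference between groups is why they are listed here. It was −1.50 for Irf7, −1.31 for Oasl1, −1.36 for Mx1, −1.15 for Rsad2 and −0.91 for Isg15.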

How the results depend on the processing

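The 25 input results of the 5 genes were recomputed 395 times under the alternatives, and 376 values kept their direction and their side of the threshold. Of those that did not, the difference of Irf7 between genotypes after LPS was −0.35 with upper-quartile size factors (adjusted p = 0.0556), −0.34 with a stricter filter on low counts (adjusted p = 0.0607) and −0.35 with only peaks annotated to 1 gene (adjusted p = 0.0564). With a replicate block, which treats equal replicate numbers as a pairing, it was −0.37 (adjusted p = 0.0661). The cause was not tested.

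Leaving out 1 library at a time, this Irf7 value ranged from −0.46 to −0.27, and that of Oasl1 from −0.50 to −0.47. The difference in mock PMs ranged from 0.37 to 0.85 for Mx1 and from −0.02 to 0.30 for Rsad2, which reversed without WT mock replicate 1 (−0.0244, adjusted p = 0.9). The difference of the responses ranged from −0.95 to −0.85 for Isg15 and from −1.60 to −1.12 for Mx1. In these fits a group of 1 sample is assumed to vary like the others.

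Leaving out 1 library at a time, the counts over all genes ranged from 2467 to 2802 for LPS in WT and from 2170 to 2628 in Adap-/- PMs, from 354 to 883 between genotypes after LPS, from 308 to 882 in mock PMs, and from 29 to 127 for the difference of the responses. DESeq2 gave 2447, 2166, 505, 565 and 100, beside 2806, 2585, 750, 823 and 78 with edgeR. With upper-quartile size factors the median log2 change after LPS moved from −0.03 to −0.32 in WT and −0.31 in Adap-/- PMs, and the split of higher and lower genes from 1434 and 1372 to 1104 and 1979 in WT and from 1350 and 1235 to 1007 and 1880 in Adap-/- PMs. Ifnar1 after LPS in Adap-/- PMs reversed there to −0.00144.

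For m6A, DESeq2 called 201 peaks for LPS in WT, 117 in Adap-/- PMs and 29 between genotypes after LPS, and 14 and 6 of the 15 member peaks for LPS in WT and Adap-/- PMs. Upper-quartile size factors gave 1 for LPS in WT PMs and 4 between genotypes after LPS. A block for the RNA sample gave 7, 6 and 0, and the use of only the libraries compared gave 1 for LPS in WT and 0 between genotypes after LPS. Without WT mock replicate 1 and Adap-/- mock replicate 2 the counts were 66, 101 and 0, with 6 and 7 member peaks. Leaving out 1 library, the counts ranged from 0 to 75 for LPS in WT, from 0 to 2 in Adap-/- PMs and from 0 to 14 between genotypes after LPS, and member peaks called from 0 to 8 in WT. Mx1 peak 1 reversed for LPS in WT PMs to 0.11 without both samples and to 0.16 without WT mock replicate 1, and was −7.51 without WT mock replicate 2.

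With 2 replicates per group the spread within a group rests on 1 difference. Low mock input counts, at most 79 reads per library, limit the ratios of Mx1 peaks 1 to 3. Only the table of peaks was used here, so genes without a peak and reads outside peaks are not seen.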
